A study of Mus musculus with 9 samples.

Results

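The mitochondrial ribosomal protein genes were taken as every gene whose symbol is Mrpl or Mrps followed by a number, measured by probe sets that carry that symbol alone. This gave 74 genes of 12393, 47 named Mrpl and 27 named Mrps, read by 127 probe sets. Transcripts were measured on 9 Affymetrix arrays from whole mouse embryos at 9.5 days post coitum. Of these, 2 arrays were homozygous for Notch1tm1Con, a targeted allele of the receptor gene Notch1 (called Notch1 null in the labels), 1 was heterozygous for it (Notch1tm1Con/+, Notch1 het), and 2 were labelled +/+ (wild type). A further 2 arrays were homozygous for Dll3neo, a targeted allele of the ligand gene Dll3 (Dll3 null), and 2 were heterozygous for it (Dll3neo/+, Dll3 het). The strain C57BL/6J is named for 1 Notch1 null array only, and the labels do not say whether an array holds 1 embryo or a pool. P-values therefore reflect how far these arrays scatter and nothing wider, scatter that can be technical in part, and the number of arrays limits the precision of every value.

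Mitochondria carry their own ribosome, which makes the few respiratory chain proteins encoded in mitochondrial DNA. Its ribosomal RNAs come from mitochondrial DNA, but all of its proteins are encoded in the nucleus, made in the cytosol and imported. Many of these proteins descend from bacterial ribosomal proteins, and the others were added during the evolution of mitochondria. In the early embryo, loss of mitochondrial translation stops growth around gastrulation or soon after, and tissues with high demand for respiration, such as the heart, depend on it most.

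The deposited values are ratios. As inferred from the values, each probe set was divided by 1 number of its own, so a ratio of 1 means that an array lies at that reference. Ratios of several probe sets of a gene were averaged on the log2 scale. Levels of different genes cannot be compared, and no value tells whether a transcript was detected. In whole embryos, fewer cells of a type and less RNA per cell cannot be told apart.

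The arrays were first checked as a set. Notch1 itself gave raised values on both arrays with the Notch1 null label (ratios 1.39 and 1.71, against 0.945 and 1.01 in wild type; log2 difference 0.66 ± 0.13 SE, adjusted p = 0.011, limma), and Dll3 in Dll3 null was at 0.804 and 0.933 (log2 difference -0.27 ± 0.11, adjusted p = 0.476). It is unknown whether the probes lie inside what each allele removes, so neither value checks a label, and every direction given here follows the labels. The spiked-in dap control RNA had mean ratios of 7.07 and 9.91 on the wild-type arrays, 5.41 and 2.68 on those of Notch1 null, 1 on that of Notch1 het and 0.382 to 0.421 on the 4 Dll3 arrays. Xist was high in replicate 1 of each group other than wild type and low in the other 5 arrays, both wild types included.

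Transcripts of the mitochondrial ribosome were lower in Notch1 null embryos than in wild type across most of the particle. Of 74 genes, 40 (54.1%) fell and 0 rose by limma at an adjusted p under 0.05, where 8.35% of all genes tested fell and 3.76% rose. The median log2 difference over the 74 genes was -0.40, beside -0.03 over all genes, and 71 of 74 lay below 0, as did 57.5% of all genes. For 68 of the 74 both Notch1 null arrays lay below both wild-type arrays, a pattern that 35.6% of all genes show, and for 2 both lay above, as for 20.6% of all genes. At an unadjusted p under 0.05, 55 members were lower and 1 higher, beside 16.9% and 8.95% of all genes. The fall was modest in size, with no gene below a log2 difference of -0.91. Leaving out 1 array of either group leaves 1 array there, and fewer members and fewer of all genes then passed. The median log2 difference over the members was then -0.44 or -0.36 without replicate 1 or 2 of Notch1 null. Without replicate 1 or 2 of wild type it was -0.41 or -0.36. Over all genes it was -0.04 to -0.03 in these fits. Quantile normalization gave 22 members that fell, where 727 of all genes passed in either direction, against 1501 in the main fit. In each of these fits 0 members rose.

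Taken over all arrays, the mean log2 ratio over the 74 genes was -0.31 and -0.33 in the Notch1 null arrays, -0.17 in the Notch1 het array, 0.06 and 0.09 in wild type, 0.07 and 0.04 in Dll3 het, and 0.07 and -0.02 in Dll3 null. Both Notch1 null arrays were thus the lowest of all 9, the single heterozygous array was next, and the other 6 arrays overlapped. Gene by gene, both Notch1 null arrays were the lowest of all 9 for 44 members (59.5%), against 13.5% of all genes, and the highest for 1 member (1.35%), against 7.32% of all genes. The dap ratios of Notch1 null, Notch1 het and wild type did not overlap either, with both wild-type arrays highest, and the 4 Dll3 arrays had the lowest dap ratios of all. Xist was low in both wild-type arrays, high in replicate 1 of Notch1 null and in Notch1 het, and low in replicate 2 of Notch1 null. With Xist as a covariate the count in Notch1 null was 36, where 1157 of all genes passed, against 1501 in the main fit. The part of either in the fall was not tested beyond this.

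**Figure D1:**
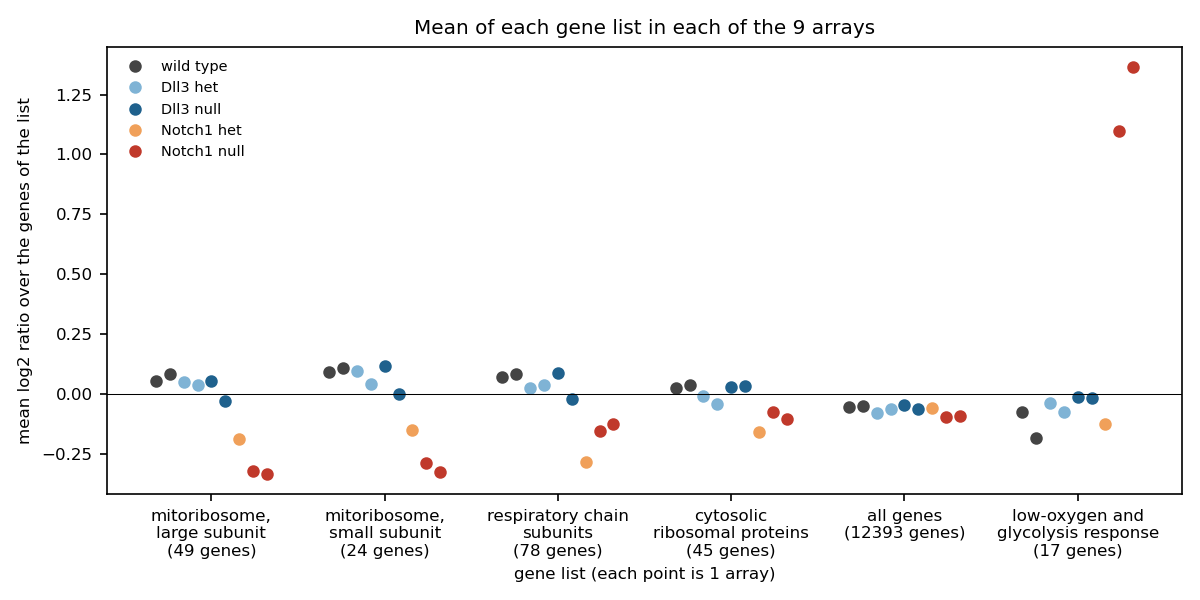
Mean log2 ratio over the genes of 6 lists (vertical axis) in each of the 9 arrays, 1 point per array, coloured by genotype. For both subunits of the mitochondrial ribosome the Notch1 null points lie below all other arrays (means of -0.31 and -0.33 over all 74 genes), and for the low-oxygen list they lie above (1.10 and 1.36).

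Genes of both subunits fell. Assigned by their place in the mammalian particle, 49 of the genes encode proteins of the large subunit and 24 of the small subunit. Of the former 26 fell (53.1%, median log2 difference -0.39) and of the latter 14 fell (58.3%, median -0.43). Split by assigned origin, 23 of 41 proteins assigned a counterpart in the bacterial ribosome fell (median -0.41). Of 32 assigned none there, 17 fell (median -0.41). Mrps18a and Mrps18b were placed among the latter, although they are related to Mrps18c, which was placed among the former. The remaining gene, Mrps36, encodes a protein now known as part of the oxoglutarate dehydrogenase complex and not of the ribosome. Its log2 difference of -0.30 ± 0.10 SE did not pass (adjusted p = 0.0822).

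The changes of all members are ordered in the plot of log2 change with standard errors. Among large-subunit proteins the lowest was Mrpl4, a core protein with a bacterial counterpart. Its ratios were 0.576 and 0.675 in Notch1 null, 0.888 in Notch1 het, 1.10 and 1.25 in wild type, 1.03 and 1.00 in Dll3 het, and 1.14 and 0.967 in Dll3 null. The Notch1 null arrays were well below all others, and the level was 1.88-fold lower than wild type (log2 -0.91 ± 0.12 SE, adjusted p = 0.0027). Mrpl20, an assembly protein that binds ribosomal RNA in bacteria, was at 0.583 and 0.521 in Notch1 null and between 0.963 and 1.20 in the other 7 arrays. It was 1.81-fold lower than wild type (log2 -0.86 ± 0.11, adjusted p = 0.0022), with the Notch1 het array next to the wild-type arrays.

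Mrpl58, a peptidyl-tRNA hydrolase built into the large subunit, was at 0.652 and 0.660 in Notch1 null, 0.804 in Notch1 het, and 1.25 and 1.10 in wild type, and fell 1.79-fold (log2 -0.84 ± 0.11, adjusted p = 0.0027). Mrpl16, which lies near the tRNA sites, was at 0.671 and 0.584 in Notch1 null. The heterozygous array (1.04) was within the range of wild type (1.01 and 1.20). Mrpl16 fell 1.76-fold (log2 -0.82 ± 0.11, adjusted p = 0.0032). Mrpl54, found only in mitochondria, had ratios of 0.568 and 0.683 in Notch1 null, 0.679 in Notch1 het and 0.990 and 1.18 in wild type. The heterozygous array overlapped the null arrays there, and the fall against wild type was 1.74-fold (log2 -0.80 ± 0.16, adjusted p = 0.0125).

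Within the large subunit, all 3 measured proteins of the stalk that recruits translation factors fell. Mrpl12, the flexible stalk protein, which also binds the mitochondrial RNA polymerase, was at 0.719 and 0.576 in Notch1 null, 0.925 in Notch1 het and 0.943 and 1.17 in wild type (log2 -0.71 ± 0.14, adjusted p = 0.0132). Its partners were lower by less, Mrpl10 by 0.42 ± 0.10 and Mrpl11 by 0.35 ± 0.10 on the log2 scale (adjusted p = 0.0275 and 0.043). Mrpl10 passed in 11 of 16 alternative settings (adjusted p up to 0.151) and Mrpl11 in 5 (up to 0.174). Of 4 proteins of the central protuberance, where mitochondria replaced a bacterial RNA, Mrpl46 (log2 -0.57 ± 0.10), Mrpl38 (-0.46 ± 0.10) and Mrpl40 (-0.44 ± 0.10) fell, and Mrpl48 (-0.32 ± 0.10, adjusted p = 0.0642) did not pass.

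At the exit of the protein tunnel only Mrpl22 of 5 genes fell (log2 -0.69 ± 0.09, adjusted p = 0.0027). The others were Mrpl47 (-0.31 ± 0.10), Mrpl45, which ties the ribosome to the inner membrane (-0.26 ± 0.10), Mrpl23 (0.10 ± 0.10) and Mrpl24 (0.27 ± 0.11). Mrpl23 and Mrpl24 are 2 of the 3 members whose log2 difference lay above 0; the third is Mrps2, of the small subunit. Mrpl24 was at 0.980 and 1.21 in Notch1 null and 0.891 and 0.912 in wild type, which do not overlap, but did not pass (adjusted p = 0.157). These groupings by position were drawn up with the values known and were not tested as groups.

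Among small-subunit proteins Mrps15, which binds ribosomal RNA early in assembly in bacteria, fell most. Its ratios were 0.793 and 0.876 in Notch1 null, 0.994 in Notch1 het, 1.53 and 1.43 in wild type, 1.06 and 0.890 in Dll3 het, and 1.13 and 1.06 in Dll3 null. Here the wild-type arrays stood above all 7 others, and the fall in Notch1 null was 1.77-fold (log2 -0.82 ± 0.11, adjusted p = 0.003). Mrps24, which lies at the entry of the mRNA, was at 0.704 and 0.731 in Notch1 null and 1.18 and 1.23 in wild type (log2 -0.75 ± 0.10, adjusted p = 0.0026). Mrps6 was at 0.640 and 0.662 in Notch1 null and 1.00 and 1.12 in wild type (log2 -0.70 ± 0.11, adjusted p = 0.0044). Mrps12, part of the decoding centre, was at 0.781 and 0.802 in Notch1 null, 0.907 in Notch1 het, 1.13 and 1.29 in wild type and 0.999 to 1.21 in the Dll3 arrays (log2 -0.61 ± 0.10, adjusted p = 0.0049).

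The Mrps18 genes form a small family of 3 related genes whose products sit at different places, Mrps18a in the large subunit and the others in the small one. Mrps18a was at 0.642 and 0.697 in Notch1 null, 0.912 in Notch1 het, 1.21 and 1.28 in wild type and 0.986 to 1.08 in the Dll3 arrays. It had the lowest p of all members (1.86-fold lower, log2 -0.89 ± 0.10, adjusted p = 0.0011). Mrps18c fell by 0.56 ± 0.11 on the log2 scale (adjusted p = 0.0114), and its Notch1 het array (0.660) was below both null arrays (0.795 and 0.677). Mrps18b was at 0.801 and 0.814 in Notch1 null against 0.948 and 1.00 in wild type and did not pass (log2 -0.27 ± 0.09, adjusted p = 0.0987).

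Mrpl1, Mrps2 and Mrpl15 had the smallest ranges over the 9 arrays, of 0.18, 0.20 and 0.21 on the log2 scale. These are ranges of means over 3, 2 and 7 probe sets, and some single probe sets ranged further. For Mrpl1, 1 probe set ran from -0.31 to 0.22, for Mrps2 1 from -0.19 to 0.33 and for Mrpl15 1 from -0.42 to 0.37. Mrps30, a large-subunit protein despite its name, had a log2 difference of -0.05 ± 0.10 in Notch1 null. Mrpl33 lay at -0.12 ± 0.10, and Mrpl44, which resembles ribonuclease III, at -0.39 ± 0.12 (adjusted p = 0.0606), while Mrpl41 fell by 0.52 ± 0.09 (adjusted p = 0.0067). Members differ in the number of probe sets behind them, and Mrpl15 has the most, 7. Of 41 genes with 1 probe set 26 fell (median -0.47), and of 33 genes with several 14 fell (median -0.28). In 24 of these 33 every probe set lay below wild type, as in 33.2% of all genes with several probe sets. Among all 127 member probe sets tested singly by limma 49 fell and 0 rose, where 5.99% of all probe sets fell and 3.46% rose. For Mrps11 the 2 probe sets disagreed in size, with log2 differences of -0.996 and -0.13. For Mrpl41, 1 of the 3 probe sets was not lower. Its log2 ratios were -0.02 and -0.08 in Notch1 null and -0.04 and -0.30 in wild type.

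**Figure D2:**
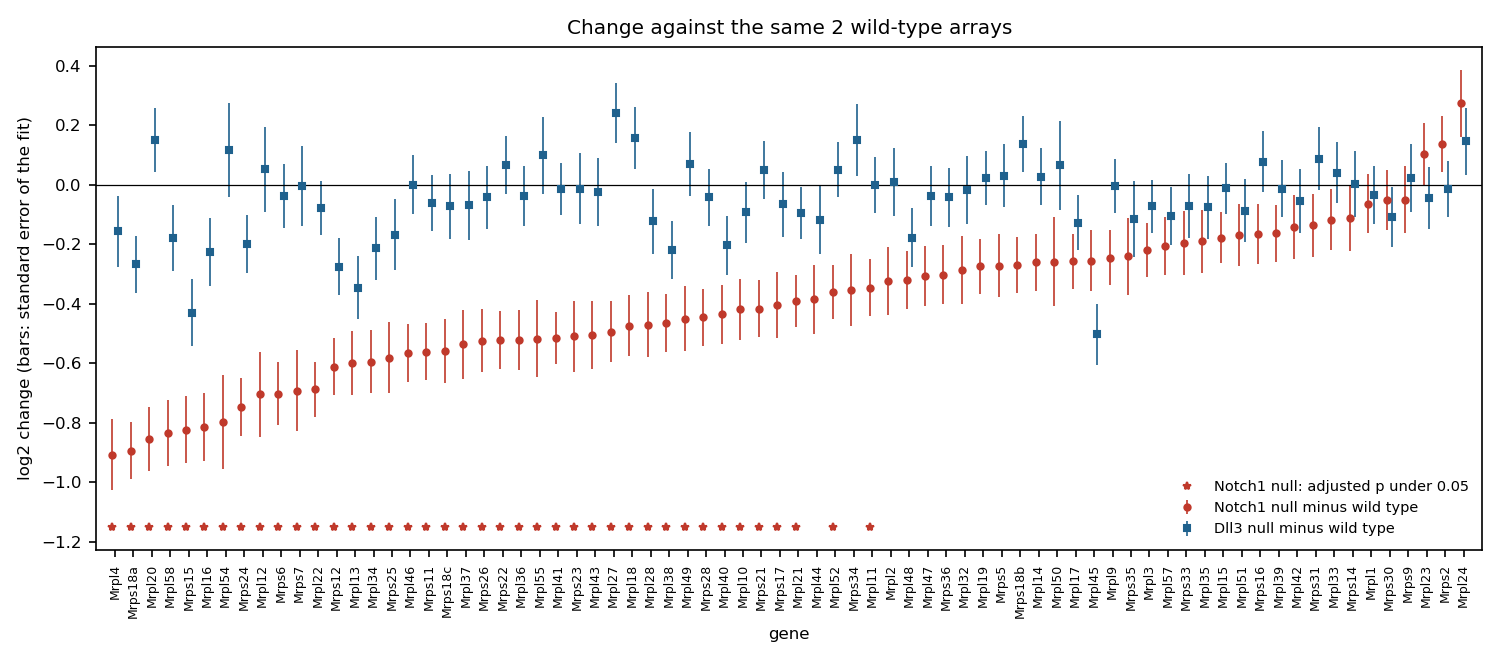
Log2 change against wild type of each of the 74 genes (horizontal axis, ordered by the Notch1 null value) in Notch1 null (red) and Dll3 null (blue), with bars for the standard error of the fit and stars for the 40 genes that fell in Notch1 null. The 2 comparisons share their wild-type arrays; the red points run from -0.91 to 0.27 and the blue ones from -0.50 to 0.24.

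Of 12 members chosen by hand, whose human counterparts are known disease genes of mitochondrial translation, 6 fell (50%), with a median log2 difference of -0.42. They were Mrpl12, Mrps7 (log2 -0.69 ± 0.14), Mrps25 (-0.58 ± 0.12), Mrps22 (-0.52 ± 0.10), Mrps23 (-0.51 ± 0.12) and Mrps28 (-0.45 ± 0.10). Their adjusted p lay between 0.0096 and 0.0227. Mrps34, Mrpl44, Mrpl3, Mrps14, Mrps16 and Mrps2 did not pass. The share that fell is near that of all members (54.1%, median -0.40) and is no result about disease genes.

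Not every call was equally firm. Over 16 alternative scalings, filters, fits and left-out arrays, 10 of the 40 genes passed each time: Mrpl4, Mrpl16, Mrpl20, Mrpl22, Mrpl58, Mrps6, Mrps12, Mrps15, Mrps18a and Mrps24. Mrpl12 passed in 14 of the 16 (adjusted p up to 0.11), Mrpl54 in 13 (up to 0.0961), Mrps18c in 14 (up to 0.0951) and Mrpl41 in 15 (up to 0.0556). The log2 difference stayed below 0 in all 16 for 68 of the 74 members. Several of the 16 could not move that difference. They were a left-out Dll3 array, the left-out Notch1 het array, only the arrays compared and the replicate block. Leaving out the Notch1 het array, alone in its group, also left the calls of this comparison unchanged.

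The shared fall can be set beside the promoters of these genes. Nuclear genes of mitochondria are known to share promoter sites for NRF1, for ETS factors such as GABP, and for YY1. RefSeq promoter windows of assembly GRCm38.p6, from 250 bases before to 50 bases after the start, were found for 65 of the 74 genes; Mrpl4, Mrpl13, Mrpl15, Mrpl19, Mrpl38, Mrpl54, Mrps28, Mrps34 and Mrps35 were not matched. The letters CGCANGCG (NRF1), searched like all others on both strands, occurred in 18 of the 65 (27.7%), CCGGAAG (ETS) in 24 (36.9%) and AAGATGGCG (YY1) in 7 (10.8%). These letters stand in 8.21%, 8.86% and 1.4% of all RefSeq windows, and of the genes on the array 16%, 16.4% and 2.82%. At least 1 of the 3 stood in 41 of the 65 genes (63.1%), against 30.4% of genes on the array, with a median G and C content of 58.7% and 59%. The E-box letters CACGTG occurred in 5 (7.69%, against 10.8% on the array), and ACGTG, the core of the hypoxia response element, which every E-box also holds, in 16 (24.6%, against 26.9%). Among genes that fell, 8 of 35 held the NRF1 letters, 15 the ETS letters and 5 the YY1 letters; among those that did not pass, 10, 9 and 2 of 30. These are matches of letters, not measured binding.

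To show what such promoters look like, the 90 bases before the start are given for 7 genes, 5′ to 3′ on the strand of the gene, with matches to the NRF1, ETS and YY1 letters on either strand in capitals and all else in lower case. The 7 were chosen by hand, with their values known, from the 14 of 35 matched genes that fell and hold such letters in these 90 bases, so they do not stand for the others; Mrpl20, Mrpl16, Mrps15 and Mrps24, which also fell, hold none there. Mrps18a and Mrpl58 hold ETS letters 26 and 17 bases before the start. Mrpl12 and Mrps7 hold NRF1 letters, Mrpl22 holds both, Mrpl43 holds NRF1 letters and ETS letters at a pair of places, and Mrpl36 holds YY1 letters on the opposite strand. The positions on GRCm38.p6 are chr17:46110914-46111003 for Mrps18a, chr11:115403662-115403751 for Mrpl58, chr11:120484547-120484636 for Mrpl12, chr11:115604050-115604139 for Mrps7, chr11:58171574-58171663 for Mrpl22 and chr13:73330919-73331008 for Mrpl36, all on the plus strand, and chr19:45006443-45006532 on the minus strand for Mrpl43.
Mrps18a: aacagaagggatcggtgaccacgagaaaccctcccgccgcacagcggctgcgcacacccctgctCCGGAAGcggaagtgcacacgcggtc
Mrpl58: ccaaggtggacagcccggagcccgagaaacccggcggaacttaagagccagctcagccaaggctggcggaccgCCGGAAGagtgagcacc
Mrpl12: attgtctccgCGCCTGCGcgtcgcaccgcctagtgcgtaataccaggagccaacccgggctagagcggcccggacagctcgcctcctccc
Mrps7: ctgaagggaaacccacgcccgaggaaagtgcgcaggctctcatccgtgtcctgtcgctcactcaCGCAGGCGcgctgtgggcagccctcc
Mrpl22: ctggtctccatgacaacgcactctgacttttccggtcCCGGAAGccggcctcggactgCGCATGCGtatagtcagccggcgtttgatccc
Mrpl43: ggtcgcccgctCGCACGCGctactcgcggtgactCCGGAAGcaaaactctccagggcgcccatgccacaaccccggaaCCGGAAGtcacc
Mrpl36: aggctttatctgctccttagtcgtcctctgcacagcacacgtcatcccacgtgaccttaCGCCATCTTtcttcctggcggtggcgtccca

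The other genes of mitochondrial gene expression were measured from lists, whose counts stand against the 8.35% of all genes that fell and the 3.76% that rose. Of 4 measured ribosomal proteins outside the symbol pattern 2 fell, Gadd45gip1 (log2 -0.56 ± 0.11 SE, adjusted p = 0.0103) and Chchd1 (-0.40 ± 0.10, adjusted p = 0.0304). Of 25 genes of ribosome assembly and RNA maturation 5 fell and 0 rose (median -0.17), among them Slirp, which stabilises mitochondrial mRNA (-0.44 ± 0.10), and Ptcd1 (-0.46 ± 0.11). Of 9 genes listed for charging mitochondrial tRNAs 1 fell (11.1%), the synthetase gene Sars2 (-0.50 ± 0.10). Of 10 genes that copy or transcribe mitochondrial DNA 1 fell (10%), Tfb2m, a factor needed to start transcription (-0.89 ± 0.17, adjusted p = 0.0114). Both shares are near that of all genes and are no result about these lists. Of 7 genes listed as translation factors or helpers of translation 0 passed by limma, with a median of -0.06. At an unadjusted p under 0.05, 2 were lower and 0 higher. The 2 were Oxa1l (-0.29 ± 0.11) and Mtfmt (-0.32 ± 0.13), which are not themselves translation factors. Of 10 nuclear regulators of mitochondrial genes 1 rose, the coactivator gene Ppargc1b (0.57 ± 0.12, adjusted p = 0.0167), and 0 fell.

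Set beside other large complexes, 23 of 78 respiratory chain subunits fell (29.5%) and 1 rose, with a median log2 difference of -0.22. Of 45 cytosolic ribosomal protein genes 2 fell (4.44%) and 0 rose, with a median of -0.10; both, Rps27l and Rps4l, are variant copies of ribosomal protein genes. Of the 45 cytosolic genes 39 lay below 0, and of the 78 respiratory chain genes 64, as did 57.5% of all genes. For 28 cytosolic genes both Notch1 null arrays lay below both wild-type arrays, and for 0 both lay above. For the respiratory chain these were 57 and 6, where 35.6% and 20.6% of all genes show these patterns. No test of the difference between these lists was made. A list of 17 measured genes that respond to low oxygen or act in glycolysis moved the other way in the same arrays: 15 rose, 0 fell, and its mean log2 ratio was 1.10 and 1.36 in Notch1 null against -0.18 to -0.01 in the other 7 arrays. In the Notch1 het array this list was at -0.13, between the 2 wild-type arrays (-0.07 and -0.18). The part of this list in the lower values of the ribosomal genes was not tested.

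Markers of tissues that a dissected embryo could carry along were also measured. Of 11 yolk sac endoderm genes 10 had a log2 difference below 0 in Notch1 null (median -0.29), of 8 primitive red cell genes 6 (median -0.05), and of 6 trophoblast and decidua genes 3 (median 0.04). The array mean of the yolk sac list was 0.36 and -0.64 in Notch1 null, -0.29 and 0.63 in wild type, 0.34 in Notch1 het and -0.45 to 0.11 in the Dll3 arrays. That of the red cell list was -0.14 and -0.00 in Notch1 null, -0.02 and -0.01 in wild type, -0.15 in Notch1 het and -0.48 to 0.07 in the Dll3 arrays. The trophoblast and decidua list was at -0.03 and -0.35 in Notch1 null, -0.30 and -0.25 in wild type, -0.17 in Notch1 het and -0.39 to -0.24 in the Dll3 arrays. By limma 0 genes of these lists passed in Notch1 null, and 1, 0 and 0 were lower and 0 higher at an unadjusted p under 0.05. The part of these tissues in the fall was not tested.

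The single Notch1 het array was compared with wild type on the assumption that it varies like the arrays of other groups. Its values were mostly below wild type: it lay below both wild-type arrays for 64 of 74 members (86.5%), as for 38.9% of all genes, and above both for 4 members (5.41%), as for 38.1% of all genes. For 40 members (54.1%) it lay between the wild-type and the Notch1 null arrays, as for 11% of all genes. The median log2 difference was -0.22, beside 0.00 over all genes, and 66 members lay below 0, as did 49.6% of all genes. At an unadjusted p under 0.05, 28 members were lower and 0 higher, beside 10.1% and 8.59% of all genes. Only 3 members fell (4.05%), where 1.53% of all genes fell and 0.718% rose, and 0 members rose: Mrpl14 (log2 -0.73 ± 0.12 SE, adjusted p = 0.0193), Mrps18c (-0.71 ± 0.13, adjusted p = 0.0331) and Mrpl13 (-0.67 ± 0.13, adjusted p = 0.0376). When either wild-type array was left out, fewer members and fewer of all genes passed. The median log2 difference over the members was then -0.23 or -0.19, without replicate 1 or 2. With Xist as a covariate the count was 0, where 50 of all genes passed, against 279 in the main fit. It was 1 when any of the 4 Dll3 arrays was left out, which bear on it only through the common variance.

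The heterozygous array did not always lie between the others. Mrpl14, a core protein of the large subunit, was at 0.614 in Notch1 het, below the Notch1 null arrays (0.809 and 0.891) and all others (0.994 to 1.08). Mrpl23 was at 0.745 in Notch1 het and 0.907 to 1.13 elsewhere. Against this array, the Notch1 null arrays had a median log2 difference of -0.16 over the members, beside -0.04 over all genes. Mrpl20 (-0.81 ± 0.13, adjusted p = 0.0172), Mrpl16 (-0.73 ± 0.14, adjusted p = 0.03) and Mrpl46 (-0.61 ± 0.12, adjusted p = 0.0359) fell, 3 of 74 (4.05%), where 1.32% of all genes fell and 1.13% rose, and 0 members rose. At an unadjusted p under 0.05, 16 were lower and 3 higher, beside 11.1% and 6.65% of all genes. Both null arrays lay below the heterozygous one for 48 of 74 members and above it for 14, against 46.8% and 30.8% of all genes. Mrpl14 and Mrpl23 were higher in Notch1 null than in Notch1 het by 0.47 ± 0.12 and 0.50 ± 0.13, which did not pass (adjusted p = 0.0699 and 0.0715). Leaving out 1 array of Notch1 null lowered the calls among the members and among all genes. The median log2 difference over the members was then -0.18 or -0.15, without replicate 1 or 2. Leaving out either Dll3 het array, which bears only on the common variance, lowered the calls too. The respiratory chain list was lower in Notch1 het (mean log2 ratio -0.29) than in Notch1 null (-0.15 and -0.12), unlike the ribosomal list.

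**Figure D3:**
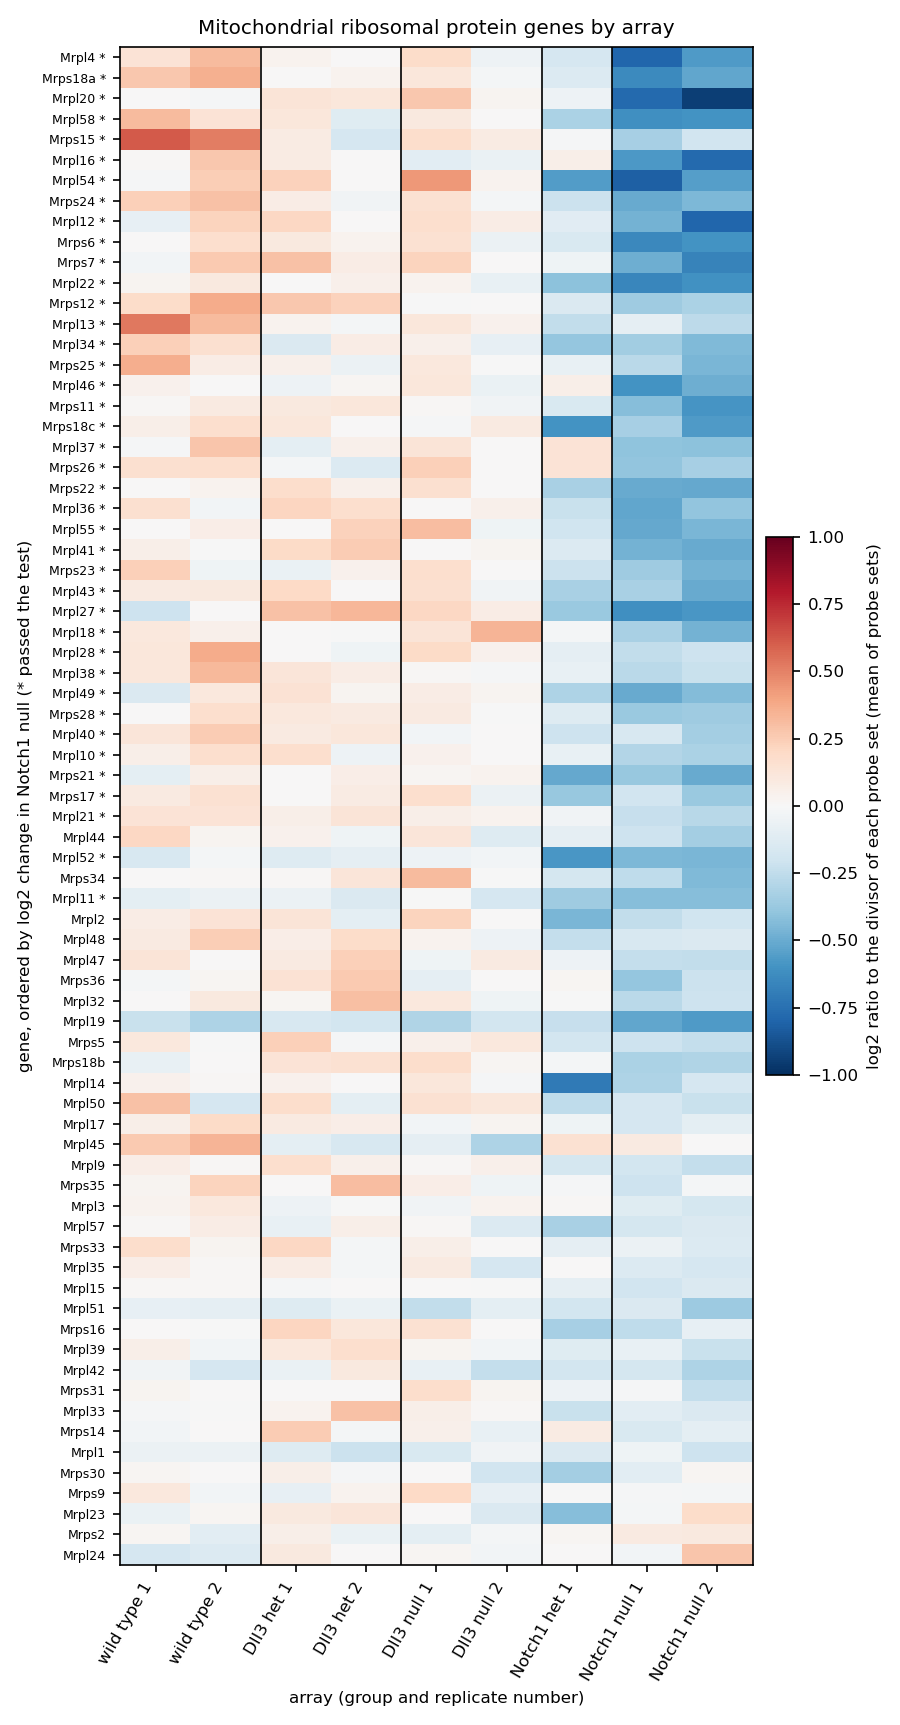
Log2 ratio of each of the 74 genes (rows, ordered by the change in Notch1 null) in each of the 9 arrays (columns, grouped by genotype), from blue (lower) to red (higher); stars mark the 40 genes that fell in Notch1 null against wild type. Blue fills the columns of both Notch1 null arrays over most rows, and more patchily that of Notch1 het.

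In Dll3 null embryos the mitochondrial ribosome genes lay close to wild type. By limma 0 of 74 passed, where 1 of all 12393 genes passed (0.00807%), and at an unadjusted p under 0.05 5 were lower and 1 higher, where 5.15% and 4.19% of all genes were. The median log2 difference was -0.04, beside 0.00 over all genes. Both Dll3 null arrays lay below both wild-type arrays for 19 of 74 members and above them for 6, against 19.7% and 19.9% of all genes. More members were thus below than above, while all genes were split nearly evenly. The median over the members depended on the array left out. Without replicate 1 or 2 of Dll3 null it was -0.09 or -0.003, and without replicate 1 or 2 of wild type -0.04 or -0.03. Mrpl45, the membrane anchor, had the largest difference: its ratios were 0.938 and 0.806 in Dll3 null, 0.936 and 0.894 in Dll3 het, 1.20 and 1.27 in wild type, 1.11 in Notch1 het, and 1.06 and 1.00 in Notch1 null. All 4 Dll3 arrays thus lay below the other 5, while the difference did not pass (log2 -0.50 ± 0.10 SE, adjusted p = 0.159). The dap control was also lowest in those 4 arrays, and its part in this result was not tested.

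The next lowest were Mrps15 (-0.43 ± 0.11, adjusted p = 0.273), Mrpl13 (-0.35 ± 0.11), Mrps12 (-0.28 ± 0.10) and Mrps18a (-0.27 ± 0.10). On the other side Mrpl27, near the peptidyl transferase centre, was at 1.15 and 1.05 in Dll3 null, 1.22 and 1.26 in Dll3 het and 0.868 and 1.00 in wild type (0.24 ± 0.10, adjusted p = 0.503). Mrpl18 (0.16 ± 0.10), Mrpl20 (0.15 ± 0.11), Mrps34 (0.15 ± 0.12) and Mrpl24 (0.15 ± 0.11) followed.

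Dll3 het embryos were also close to wild type. By limma 0 of 74 passed, where 11 genes fell (0.0888%) and 3 rose (0.0242%) among all; at an unadjusted p under 0.05 7 members were lower and 1 higher, beside 8.92% and 5.61% of all genes. The median log2 difference was -0.02, with 43 members below 0, as were 52.9% of all genes. Both arrays lay below both wild types for 18 members and above them for 15, as for 26.8% and 19.4% of all genes. Mrps15 (-0.60 ± 0.11, adjusted p = 0.0766) and Mrpl45 (-0.43 ± 0.10, adjusted p = 0.112) were the lowest, and Mrpl27 (0.41 ± 0.10, adjusted p = 0.113) and Mrps36 (0.20 ± 0.10) the highest. These comparisons use the same wild-type arrays as those of Notch1. Between Dll3 null and Dll3 het, which share no array, 0 of 74 members passed, as did 0 of all genes (0%). At an unadjusted p under 0.05 3 members were lower, Mrps12 (-0.25 ± 0.10), Mrps36 (-0.24 ± 0.10) and Mrpl41 (-0.21 ± 0.09), and 1 higher, Mrpl18 (0.24 ± 0.10), where 1.86% and 3.41% of all genes were. The arrays did not overlap for 17 of 74 members that were lower and 6 that were higher in Dll3 null, against 12.5% and 20.7% of all genes. Among the members more were thus lower than higher, and among all genes more were higher. The median log2 difference over the members was -0.04, but its sign changed with the array left out. Without replicate 1 or 2 of Dll3 het it was 0.001 or -0.05. Without replicate 1 or 2 of Dll3 null it was -0.07 or 0.02. The median standard error over the members was 0.10 in each of these comparisons, so small differences were not detectable with 2 arrays a group.

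Notch1 null and Dll3 null were also compared directly, which uses no wild-type array for the difference itself. Of 74 members 30 were lower in Notch1 null (40.5%) and 0 higher, where 4.87% of all genes were lower and 2.92% higher. The median log2 difference was -0.34, beside -0.04 over all genes, and 69 members lay below 0, as did 60.7% of all genes. At an unadjusted p under 0.05, 52 were lower and 1 higher, beside 14.3% and 8.13% of all genes. For 63 members (85.1%) both Notch1 null arrays lay below all 4 Dll3 arrays, as for 23.8% of all genes. Mrpl20 differed most (log2 -1.01 ± 0.11 SE, adjusted p = 0.0018), then Mrpl54 (-0.91 ± 0.16, adjusted p = 0.011), Mrpl12 (-0.76 ± 0.14, adjusted p = 0.0148), Mrpl4 (-0.75 ± 0.12, adjusted p = 0.0083) and Mrpl27 (-0.73 ± 0.10, adjusted p = 0.0053). Mrpl45 lay on the other side (0.25 ± 0.10, adjusted p = 0.19), as did Mrps2 (0.15 ± 0.10, adjusted p = 0.402), of which 1 of its 2 probe sets tested singly was higher (adjusted p = 0.0386). The count dropped to 4 when only these 4 arrays were fitted, where 182 of all genes passed in either direction, against 966 in the main fit. It also dropped, as did the calls over all genes, when 1 array of either group was left out. The median log2 difference over the members was then between -0.40 and -0.31, beside -0.05 to -0.04 over all genes. The dap ratios of these groups do not overlap either, and their part in the difference was not tested.

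Whether the step from heterozygote to homozygote differed between the loci was tested with an interaction, whose sides share no array. By limma 0 of 74 members passed, where 41 of all genes did (0.331%); 11 were lower and 3 higher at an unadjusted p under 0.05, beside 9.34% and 5.19% of all genes. The lowest adjusted p was that of Mrpl20 (log2 -0.83 ± 0.17 SE, adjusted p = 0.0821), followed by Mrps26 (-0.70 ± 0.17, adjusted p = 0.107) and, in the other direction, Mrpl23 (0.68 ± 0.16, adjusted p = 0.107). The side from Notch1 rests on the single heterozygous array.

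**Figure D4:**
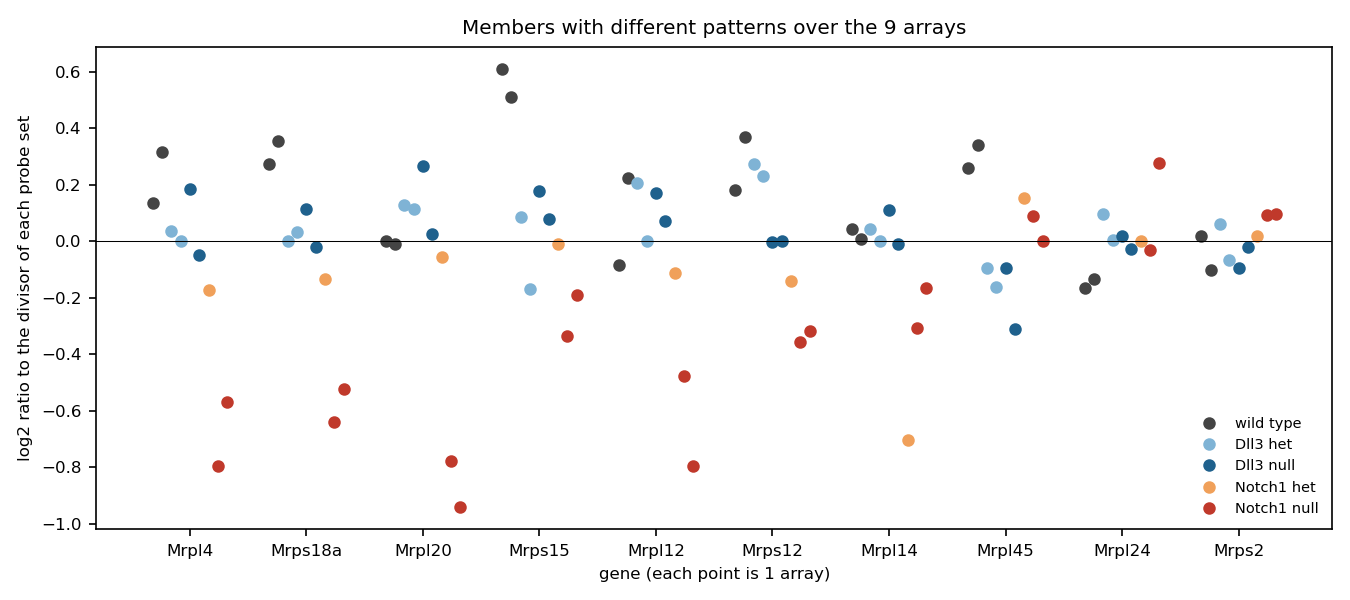
Log2 ratio (vertical axis) of 10 genes in each of the 9 arrays, 1 point per array, coloured by genotype. Mrpl4, Mrps18a, Mrpl20, Mrpl12 and Mrps12 have both Notch1 null points lowest, Mrps15 also has wild type highest, Mrpl14 is lowest in Notch1 het, Mrpl45 is lowest in the 4 Dll3 arrays, and Mrpl24 and Mrps2 have Notch1 null above wild type.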

How the data were processed

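Whole-embryo RNA was measured on 9 arrays in 5 genotype groups. The authors deposited ratios: the values were made with RMA, per the submitters' processing notes, and the deposited ratio of each probe set has a median of exactly 1 for 19847 of 22690 probe sets (87.5%), below 1 by more than a rounding tolerance of 0.002 for 2824, below 1 within it for 19 and above 1 for 0. Division by a number of its own per probe set was inferred from these values. It removes absolute level, so no filter on dim probes was made. Array coordinates and a genome build are not given in the sources used here.

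After 64 control probe sets were left out, the 20380 probe sets with 1 symbol were averaged as log2 ratios to 12393 genes; 691 with several symbols, 3 of them with a member symbol, and 1555 with none were not used. No pair of arrays held identical values. All 5 groups were fitted together with limma 3.58.1 in R 4.3.3 (lmFit, contrasts, eBayes; 4 residual degrees of freedom), with Benjamini-Hochberg adjustment over all genes and a threshold of 0.05. The fitting code was tested on simulated data. Alternatives were median centring, quantile normalization, a pseudocount of 0.1, probe sets with a median below 1 left out, only the arrays compared, a replicate block, Xist as a covariate, probe sets singly, and each array left out.

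The members and all lists were chosen with earlier results of these data known. Named members were up to 10 called each way with the largest change for the null groups against wild type (filled to 5 where fewer than 5 were called), up to 5 for other comparisons (filled to 2), 10 chosen for known roles, and the 3 with the smallest range. For each list the 2 genes of lowest p were named. Other members named by subunit position, disease or probe sets were chosen after their values were seen.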

Additional observations from a re-analysis of the deposited data

How the results depend on the processing

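The count of members that fell in Notch1 null against wild type was 40, and 36 to 42 under median centring, an added pseudocount, the filter on medians, fitting only the arrays compared, the replicate block (39) or Xist as a covariate. It was 22 under quantile normalization and 12 to 40 with 1 array left out. For Notch1 het against wild type the count of 3 became 1 under quantile normalization, 0 when only the arrays compared were fitted, 0 with Xist and 8 of 127 probe sets tested singly, and 0 to 2 with 1 array left out. For Notch1 null against Notch1 het the count of 3 became 0 under quantile normalization, 0 with only the arrays compared, 1 with the replicate block and 1 with Xist, and 0 to 2 with 1 array left out. For Notch1 null against Dll3 null the count of 30 became 16 under quantile normalization, 4 with only the arrays compared and 2 to 30 with 1 array left out. For Dll3 het the count of 0 became 1 with probe sets tested singly. Among the fits on genes, calls over all genes fell wherever a count of members fell. For Notch1 null against wild type they went from 1501 to 727 under quantile normalization. For Notch1 null against Dll3 null they went from 966 to 448 there, and to 182 with only the arrays compared. Fewer arrays or fewer degrees of freedom are part of the settings that leave arrays out. For the other settings the cause was not tested.

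The replicate numbers were not taken as pairs: the correlation over genes of the differences between replicates 1 and 2 lay between -0.18 and 0.18 for the 6 pairs of groups. Replicate 1 was nevertheless high in Xist in every group but wild type, so in those groups the block is not separate from sex. Precision is limited by 2 arrays a group and 1 for Notch1 het.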
